A study of Mus musculus with 2 samples.

Results

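The cytosolic ribosomal protein genes were chosen by symbol: names of the form Rpl or Rps followed by a number, Rpsa, and the stalk genes Rplp0, Rplp1 and Rplp2, without pseudogenes named -ps. The rule found 89 of 52550 gene identifiers, 36 of the small subunit (Rpsa included) and 53 of the large subunit. In the GENCODE M21 annotation, 84 of them were protein-coding. The other 5 (Rps4l, Rps12l1, Rpl6l, Rps3a2 and Rps3a3) were listed as pseudogenes. The counts come from 2 Drop-seq libraries, replicates 1 and 2, made from CD1 mouse embryos of wild-type genotype, collected at E10.0. Drop-seq captures the 3′ ends of polyadenylated RNA of single cells on barcoded beads in droplets and counts molecules by their unique molecular identifiers (UMIs). For each library the heart tube and the posterior part of the second heart field were dissected from about 80 embryos and pooled, and each was made on its own day. Both libraries belong to 1 group, so the comparisons lie between cell classes within the pools and not between embryos or treatments, and the field and the tube cannot be told apart except through the markers of the cells.

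Each cytosolic ribosome holds a small subunit, which reads the mRNA, and a large subunit, which joins the amino acids. Most of their proteins are encoded by a single intron-containing gene that has left many processed pseudogenes in the genome. The proteins are needed in about equal numbers, and their mRNAs are among the most abundant in growing embryonic cells. Many of these mRNAs begin with a C followed by a run of pyrimidines (C or T in the DNA), the 5′ terminal oligopyrimidine tract, through which their translation follows growth signals. The second heart field supplies progenitors to the growing poles of the heart tube, whose cardiomyocytes already contract.

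The starts of 9 genes that the results return to are shown with 10 bases before and 20 bases from the annotated start, and capitals mark a run of C followed by C or T letters, at least 7 letters in all, that begins within 5 bases of that start.
Rpl15: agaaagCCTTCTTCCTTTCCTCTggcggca
Rpl14: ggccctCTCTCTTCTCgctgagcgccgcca
Rplp2: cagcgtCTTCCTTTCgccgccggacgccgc
Rpl27a: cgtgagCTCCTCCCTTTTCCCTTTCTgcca
Rpl38: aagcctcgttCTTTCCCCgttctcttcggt
Rpl22l1: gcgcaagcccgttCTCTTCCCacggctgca
Rpl5: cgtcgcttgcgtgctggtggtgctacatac
Rplp0: cgggtttcgaggaccgcctggttctcctat
Rps4x: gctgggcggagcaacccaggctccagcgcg
They are RefSeq sequences of the build GRCm38.p6, each read 5′ to 3′ on the gene's own strand: Rpl15 at chr14:18270967-18270996 (minus strand), Rpl14 at chr9:120571507-120571536 (plus), Rplp2 at chr7:141447641-141447670 (plus), Rpl27a at chr7:109519185-109519214 (plus) and Rpl38 at chr11:114668570-114668599 (plus). The window of Rpl22l1 lies at chr3:28805498-28805527 (plus), that of Rpl5 at chr5:107900518-107900547 (plus), that of Rplp0 at chr5:115559457-115559486 (plus) and that of Rps4x at chrX:102189372-102189401 (minus). The run was searched on the gene's own strand alone. It was found in 23 of the 64 members with an entry in the RefSeq table (35.9%), against 2066 of all 27025 genes in that table (7.6%). The first 6 sequences above have the run, and the run of Rpl27a spans 20 letters. Rpl5, Rplp0 and Rps4x have no such letters at the annotated start, which describes this window and not the start that the cells used.

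After filtering (400 or more genes per cell, no more than 10% of UMIs from the mitochondrial genome, and without the 5% of cells with the highest doublet scores), 3864 and 4743 cells were kept in replicates 1 and 2, with 11166115 and 12825780 UMIs and medians of 1375.5 and 1503 per cell. Both libraries together shared 82 cell barcodes, and 0 of them among the kept cells. Clustering without the ribosomal protein genes gave 17 clusters, of which 12 were named by markers and formed 11 classes with 61.1% of the kept cells. The suffix "-like" says that a name rests on markers alone. In the cardiomyocyte-like class all 10 markers had UMIs, and their sum was 20561 and 27934 CPM (counts scaled to the total UMIs of each class and library), against at most 1222 and 1485 CPM in any other class. The SHF progenitor-like class was set apart far less: its 13 markers, all with UMIs, summed to 1929 and 1828 CPM, against up to 1770 and 1303 CPM in another class. These 13 join the lists for SHF progenitors and for foregut mesenchyme, and the foregut mesenchyme markers Barx1 and Nkx6-1 were among those raised. The sum is therefore not one of SHF progenitor markers alone. The markers of the neural crest-like class likewise include ectomesenchyme genes, of which Dlx1, Dlx2, Dlx5 and Dlx6 were raised. The 8 erythroid markers summed to 340373 and 398639 CPM in the erythroid-like class and to between 958 and 1604 CPM in every other class, so haemoglobin RNA was present at a low level throughout. Among the 5 unnamed clusters, cluster 0 held 18.9% and 18.7% of the cells at medians of only 668 and 751 UMIs, and cluster 13 held 4.01% and 2.02%.

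The ribosomal protein genes gave 7.09% of all UMIs in replicate 1 and 8.07% in replicate 2, or 1826507 UMIs in all. Small-subunit genes contributed 3.51% and 4.13%, and large-subunit genes 3.58% and 3.94%. The genes of the mitochondrial ribosome, 78 in number, gave 0.929% and 1.04%. The ribosomal protein counts were unevenly spread over the family: the 10 leading genes held 44.9% of the family's UMIs and the 20 leading genes 70.7%. Among the leading genes were Rps14 with 86648 UMIs, Rpl4 with 86290, Rps26 with 86284 and Rps3 with 85912. At the other end stood Rps6, the small-subunit protein phosphorylated by S6 kinases, with 126 UMIs, and Rpl3, which lies near the peptidyl transferase centre, with 149.

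Counts tended to be lower where fewer of the last 400 bases of a gene's transcripts were its own. These ends were cut into words of 50 bases and looked up in all GENCODE M21 transcripts. In Rps6, 11.97% of the words occurred in no gene at another place in the genome, and 14 pseudogenes held the others. For Rpl3 the share was 16.81%, with 10 pseudogenes. The 19 coding members with fewer than 25% of such words had a median of 857 UMIs, the 42 between 25% and 75% a median of 10136.5, and the 23 with at least 75% a median of 20301. Across the 84 coding members Spearman's rho was 0.404, a description over genes that share libraries and depth. The paralogues Rpl3l, Rpl10l and Rpl39l went against it, with 2, 8 and 6 UMIs although 100% of their words were their own, and Rpl13 did so the other way, with 34724 UMIs at 11.97%. Without the 3 paralogues, which were set aside after their values were seen, rho was 0.553 and the median of the remaining 20 members with at least 75% was 36011.5. How reads that fit several genes were counted is not given in the sources used here, so the low counts of Rps6 and Rpl3 give no measure of their mRNA, and levels are compared below between classes rather than between genes.

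**Figure D1:**
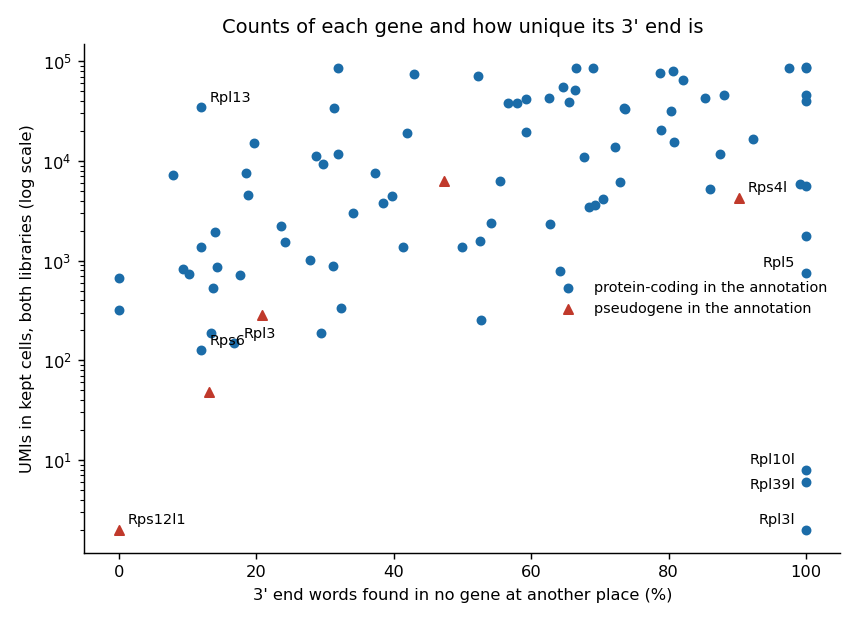
UMIs of each ribosomal protein gene in the kept cells of both libraries (vertical axis, log scale) against the percentage of its 50-base 3′ end words that occur in no gene at another place (horizontal axis). Circles are genes that the annotation lists as protein-coding and triangles those it lists as pseudogenes, and many genes with few words of their own lie low, among them Rps6 with 126 UMIs and Rpl3 with 149, while Rpl13 lies apart with 34724, as do Rpl3l, Rpl10l and Rpl39l, at 100% with 2, 8 and 6 UMIs.

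A filter on low counts left 81 members for testing. The 8 that did not pass were Rps6, Rpl3, Rpl24, Rpl3l, Rpl6l, Rpl10l, Rpl39l and Rps12l1. Every kept cell of a class was summed within its library, and each class was compared with the mean of the other 10 classes by edgeR's quasi-likelihood test with the library as a block and Benjamini-Hochberg adjustment over all 2434 tested genes and 11 classes. A member was called at an adjusted p under 0.05 with the same direction in both libraries. The p-values rest on 2 libraries of pooled embryos, and all classes of a library come from the same embryos.

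Cardiomyocyte-like cells had the lowest summed share of ribosomal protein UMIs among the 11 classes in both libraries. It was 5.79% in replicate 1 (exact 95% binomial interval 5.74% to 5.84%) and 5.95% in replicate 2 (5.90% to 6.01%), a mean of 5.87% ± 0.115 (SD, n = 2). The intervals here cover counting error only. SHF progenitor-like cells, where SHF stands for second heart field, had 7.04% and 7.96% (7.50% ± 0.647, SD, n = 2). The share in cardiomyocyte-like cells lay below that of the progenitor-like cells in each library, and the 2 ranges did not overlap.

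At the upper end, neural crest-like cells had 7.78% (7.72% to 7.83%) and 8.79% (8.74% to 8.83%), a mean of 8.28% ± 0.715 (SD, n = 2). Hepatoblast-like cells had 7.41% and 8.90% (8.16% ± 1.06, SD, n = 2). Neural crest-like cells were highest in replicate 1 and hepatoblast-like cells in replicate 2, so the order of these neighbours did not hold across the libraries. Paraxial mesoderm-like cells (7.80% ± 0.719), neural-like cells (7.79% ± 0.385), surface ectoderm-like cells (7.74% ± 0.833) and foregut endoderm-like cells (7.70% ± 0.827, each SD, n = 2) differed from each other by less than their spread. Endothelial-like cells followed at 7.10% and 7.38% (7.24% ± 0.195) and epicardial-like cells at 6.56% and 7.51% (7.03% ± 0.670, SD, n = 2), whose values overlapped.

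Erythroid-like cells had 6.81% and 6.56% (6.68% ± 0.177, SD, n = 2) of all UMIs. Haemoglobin genes took 38.7% and 43.9% of the UMIs of that class. With haemoglobin and mitochondrially coded genes left out of the total, the erythroid-like share was 11.3% and 11.8%, above that of every other class in both libraries, while the cardiomyocyte-like share was 5.89% and 6.03% and stayed the lowest. The number of ribosomal protein UMIs per cell was 460 and 489 in erythroid-like cells, against 248 and 211 in the cardiomyocyte-like class and 244 and 210 in the SHF progenitor-like class. Fewer UMIs of a gene in a class and more of all other genes cannot be told apart in such shares.

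The share was higher in replicate 2 than in replicate 1 in 10 of the 11 classes, the exception being erythroid-like cells. In 7 classes the deeper cells had a higher share than the shallower cells in both libraries, and in 0 classes a lower share in both. Large-subunit UMIs per small-subunit UMI ran from 0.941 in foregut endoderm-like to 1.07 in erythroid-like cells. Malat1, a nuclear noncoding RNA, was at 2226 and 1462 CPM in cardiomyocyte-like cells, the highest of the named classes. Its part in the low share was not tested. The unnamed cluster 13 combined 4895 and 3949 CPM of Malat1 and 4.92% and 4.70% mitochondrial UMIs with 2.92% and 3.91% of ribosomal protein UMIs, and cluster 0 had 8.32% and 9.79%. Barcodes of 10 to 200 UMIs, taken here as free RNA, had 6.74% and 8.37% of ribosomal protein UMIs, near the level of whole libraries.

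**Figure D2:**
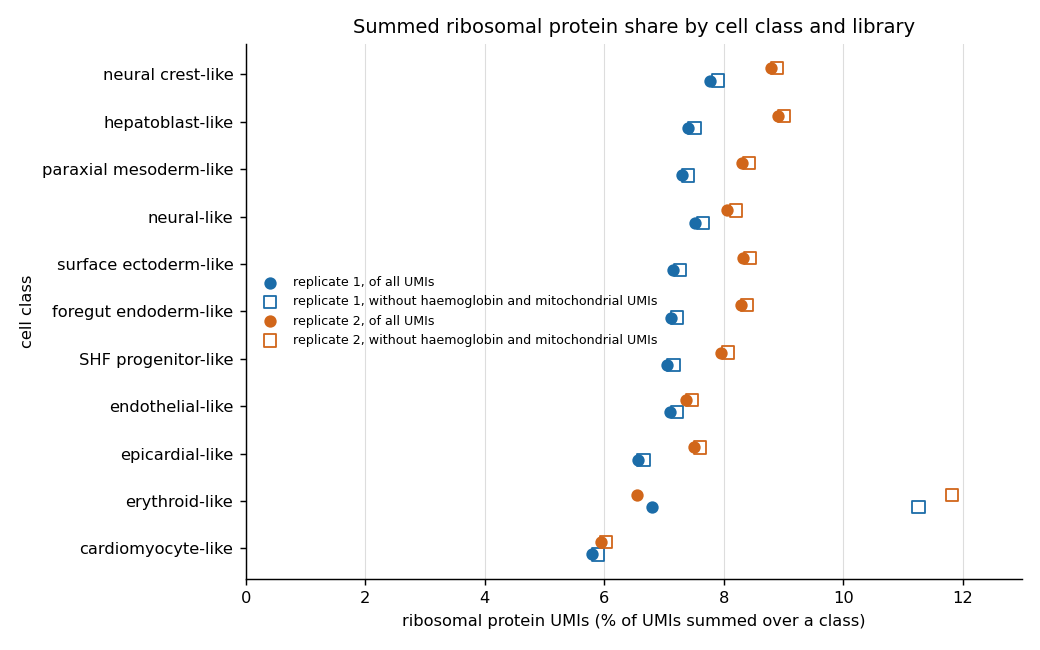
Ribosomal protein UMIs as a percentage of the UMIs summed over each cell class (horizontal axis), by class and library; filled circles use all UMIs and open squares leave out haemoglobin and mitochondrial UMIs. Cardiomyocyte-like cells lie lowest in both libraries at 5.79% and 5.95%, and erythroid-like cells move from 6.81% and 6.56% to 11.3% and 11.8%.

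In cardiomyocyte-like cells 47 of the 81 tested members were lower and 1 was higher than in the other classes, whereas 11.4% of all tested genes were lower and 16.5% higher there. The median member difference was -0.35 on the log2 scale, against -0.0037 over all tested genes, and 70 members lay below 0 in both libraries and 2 above. The count was shared between the subunits: 22 of 34 small-subunit and 25 of 47 large-subunit members were lower. The 10 cardiomyocyte markers were high in this class in both libraries, as given above. Without the library as a block 11 members were lower and 1 was higher, against 3.62% and 10.8% of all tested genes.

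The stalk of the large subunit, formed by the Rplp0, Rplp1 and Rplp2 proteins, recruits the translation factors, and its genes were among the clearest. Rplp0 was at 2259 and 2232 CPM in cardiomyocyte-like cells and at between 2644 and 4044 CPM in the other classes. Every other class lay above both cardiomyocyte-like values, and the difference was -0.57 ± 0.065 (SE, log2; adjusted p = 5.94e-11). Rplp1 was at 2237 and 2104 CPM, against 2361 and 2490 in the next lowest class, foregut endoderm-like cells (log2 difference from all classes -0.51 ± 0.067, adjusted p = 5.66e-09). Rplp2 was at 1391 and 1250 CPM (log2 difference -0.43 ± 0.071, adjusted p = 1.81e-06). The erythroid-like value of replicate 2, at 1334 CPM, lay between these, so for Rplp2 the groups overlapped across libraries though not within each.

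Rpsa, the laminin receptor homologue of the small subunit, was at 521 and 600 CPM in cardiomyocyte-like cells (mean log2 difference -0.50 ± 0.081, adjusted p = 1.41e-06). All other classes lay between 613 and 1072 CPM, above both values. Rps21 was at 965 and 881 CPM, with a log2 difference of -0.58 ± 0.075 (adjusted p = 4.02e-09). Rps19, whose gene is the one most often mutated in Diamond-Blackfan anaemia, was at 1527 and 2156 CPM and fell by less (log2 difference -0.29 ± 0.084, adjusted p = 0.00852). Its classes lay between 1446 and 2222 CPM in replicate 1 and between 2156 and 3179 CPM in replicate 2, and the median difference between the libraries was 0.60 on the log2 scale.

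A low value belonged to a thinly counted member. Rps27a, a ubiquitin fusion gene, had 5 and 20 UMIs in cardiomyocyte-like cells, or 7.02 and 26.2 CPM, and a log2 difference of -1.03 ± 0.263 (adjusted p = 0.00207). Its end words are mostly shared with pseudogenes, with 9.4% of its own, and it is named here after its values were seen. Rpl11 and Rpl38 did not pass the test in this class: Rpl11 was at 156 and 262 CPM and Rpl38 at 114 and 174 CPM, within the range of the other classes.

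Set directly against SHF progenitor-like cells, 34 members were higher in the progenitor-like cells and 1 was higher in the cardiomyocyte-like cells. Of all tested genes 15.3% were higher and 12.7% lower in that direction. The median member difference was 0.30 on the log2 scale (0.09 over all tested genes), 66 members lay above 0 in both libraries and 3 below, and 17 members of each subunit were higher. Because the progenitor-like cells also enter the mean of the other classes above, these counts are not independent of the previous ones. Without the library as a block 2 members were higher and 1 was lower, DESeq2 called 21 and 1, and classes gated by markers gave 21 and 1.

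Rplp0 was at 3003 and 3396 CPM in SHF progenitor-like cells, against 2259 and 2232 in cardiomyocyte-like cells (log2 difference 0.45, adjusted p = 9.87e-06). Rpsa was at 736 and 914 CPM, against 521 and 600 (log2 difference 0.50, adjusted p = 6.7e-05). Rps4x, the X-linked gene of a small-subunit protein, was at 370 and 593 CPM, against 251 and 410 (log2 difference 0.49, adjusted p = 0.000399). In each of these genes the progenitor-like value was the higher in both libraries. Rps27a had the largest difference, 1.10 (adjusted p = 0.00305; 1.46 and 0.82 in replicates 1 and 2), on the few UMIs given above. The gene that was higher in cardiomyocyte-like cells was Rps4l, listed in the annotation as a transcribed processed pseudogene (log2 difference -0.80 ± 0.145, adjusted p = 1.3e-05; -0.68 and -0.87 by replicate).

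**Figure D3:**
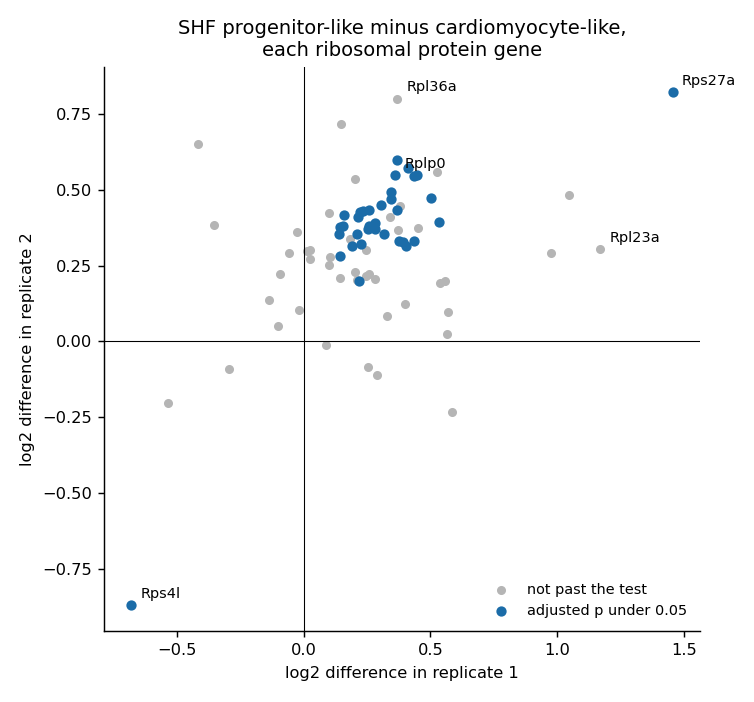
Log2 difference of each ribosomal protein gene, SHF progenitor-like minus cardiomyocyte-like cells, in replicate 1 (horizontal axis) and replicate 2 (vertical axis), scaled to all genes; values above 0 are higher in the progenitor-like cells. Coloured points passed edgeR's test at an adjusted p under 0.05: 34 lie above 0 and Rps4l lies below, at -0.68 and -0.87.

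For erythroid-like cells the direction depended on the scale. Scaled by edgeR's trimmed mean (TMM), which sets the bulk of genes level, 67 members were higher and 2 lower, against 26.4% and 24.1% of all tested genes, and the member median was 0.67 on the log2 scale. Scaled to all UMIs instead, 2 members were higher and 34 lower, against 4.62% and 57.7% of all tested genes. The member median was then -0.23, while the median of all tested genes was -0.97. Relative to the median of all genes the members were therefore 0.74 higher under TMM and 0.75 higher without it. The TMM factors of this class were 0.588 and 0.547, and those of the cardiomyocyte-like class 1.01 and 0.988. With classes gated by markers, 62 members were higher and 0 lower under TMM, against 22.4% and 2.62% of all tested genes. The member median was then 0.38 and its distance from the median of all genes 0.20. Changes in erythroid-like cells are given on the TMM scale below. The erythroid-like class is also part of the mean that every other class is set against. Its higher member levels under TMM therefore shift most member differences of those classes downward, and small negative medians include this shift. The direct comparison of SHF progenitor-like with cardiomyocyte-like cells does not use that mean.

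Under TMM, Rplp0 differed in erythroid-like cells by 1.13 ± 0.055 (SE, log2, adjusted p = 1.11e-26), with 3841 and 3632 CPM. These were the highest value of any class in replicate 1 and the second highest in replicate 2, so the CPM of Rplp0 were high in these cells too. Rpl14 was at 2201 and 2034 CPM and differed by 1.11 ± 0.061 (adjusted p = 5.43e-24). Rpl36al, a close paralogue of Rpl36a, differed by 1.13 ± 0.103 (adjusted p = 4.4e-14) and Rpl17 by 1.20 ± 0.184 (adjusted p = 3.48e-07, at 32.5 and 51.4 CPM). By contrast, Rps19 (0.83), Rplp2 (0.70), Rps4x (0.63), Rpl38 (0.49) and Rpl11 (0.31) were higher under TMM and had negative differences when scaled to all UMIs. Rpl5 (-1.04 ± 0.335, adjusted p = 0.0173) and Rpl15 (-0.73 ± 0.180, adjusted p = 0.0014) were the 2 lower members under TMM.

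Neural crest-like cells had 24 higher and 0 lower members, against 17.1% and 4.4% of all tested genes. The member median was 0.16 on the log2 scale, close to the median of all tested genes in that class, 0.12. Rplp1 stood out at 3905 and 4132 CPM, above every other class in both libraries (log2 difference 0.44 ± 0.060, adjusted p = 1.52e-08). Rplp0, at 3652 and 4044 CPM, differed by 0.26 ± 0.058 (adjusted p = 0.00049), and Rpl27, with 49.7 and 103.5 CPM, by 0.63 ± 0.147 (adjusted p = 0.000632). Without the library as a block 1 of the 81 members was higher, against 5.05% of all tested genes. DESeq2 called 5 of the 81 higher, against 8.22%. Under both settings members were called higher no more often than all tested genes.

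Epicardial-like cells had 0 higher and 20 lower members (background 11.4% and 4.56%), with a member median of -0.18, and 62 members lay below 0 in both libraries. Rplp0 (log2 difference -0.30, adjusted p = 0.000102), Rplp1 (-0.29, adjusted p = 0.000472), Rps21 (-0.29, adjusted p = 0.00143) and Rpl14 (-0.27, adjusted p = 0.00186) were among them. Scaled to all UMIs without TMM, 9 members were lower and 1 was higher (background 2.11% and 14.8%). Marker-gated classes gave 7 lower (background 3.68%), and without the library as a block 0 passed (background 0.37% lower and 7.11% higher).

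Few members passed in the other classes. Foregut endoderm-like cells had 0 higher and 4 lower members (background 12.7% and 5.75%). Rplp1, at 2361 and 2490 CPM, was lower by 0.47 on the log2 scale (difference -0.47 ± 0.066, adjusted p = 5.34e-08). Rpl22l1, at 618 and 690 CPM, differed by -0.40 (adjusted p = 8.36e-05) and Rpl36al, at 92.9 and 152.7 CPM, by -0.51 (adjusted p = 0.000676), while Rplp0 differed by only -0.18 (adjusted p = 0.0304).

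Endothelial-like cells had 0 higher and 6 lower members (12.9% and 6.74%). Rpl11, which with Rpl5 and 5S rRNA can bind the p53 regulator Mdm2, was among them (-0.34 ± 0.117, adjusted p = 0.0296), at 185 and 218 CPM. That call was lost under 8 alternatives, with adjusted p from 0.0562 to 0.635. Neural-like cells had 1 higher and 3 lower (8.5% and 6.37%), paraxial mesoderm-like cells 0 and 2 (7.89% and 3.16%) and hepatoblast-like cells 1 and 1 (7.27% and 5.75%). In hepatoblast-like cells Rps21 was the higher member (log2 difference 0.26, adjusted p = 0.00903) and Rpsa the lower one (-0.27, adjusted p = 0.0264). SHF progenitor-like cells had 0 and 1 (14.7% and 3.29%), and surface ectoderm-like cells 0 and 1 (11.9% and 3.53%). Scaled to all UMIs without TMM, 16 members were higher and 0 lower in hepatoblast-like cells (background 11.1% and 3.56%). DESeq2 called 10 lower members in SHF progenitor-like cells (background 3.49% lower). Over all classes, 94 of the 891 member and class pairs were higher and 87 lower, against 13.4% and 7.19% of all gene and class pairs. Scaled to all UMIs without TMM the same counts were 67 and 96. All but 7 members (Rpl10, Rpl10a, Rpl19, Rpl28, Rpl29, Rps23 and Rps27) were called in at least 1 class. Erythroid-like cells alone gave 67 of the higher and 2 of the lower calls. The matching share of all tested genes is not given here, so this count describes no trait of the family.

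To ask which single genes left the common course of the family, the counts were scaled to the ribosomal protein sum of each class and library in place of all genes, so that a difference of 0 means that a gene kept its share of the family. On this scale 71 pairs of a member and a class passed an adjusted p of 0.05, 27 higher and 44 lower, over 42 members. Of these pairs 30 were in erythroid-like cells, 7 higher and 23 lower. The other 39 members passed in no class.

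At 1.5-fold or more 8 pairs departed, 2 upward and 6 downward, against 10.1% and 6.26% of all gene and class pairs on this scale. By its construction this scale holds the members near 0 and shifts all other genes by the family's change. A lower share of members than of all genes was therefore set in advance and is no result. At any size the background was 13.8% higher and 7.93% lower over all classes, and 5.67% and 50.0% in erythroid-like cells. The 8 pairs involved Rps4l in 3 classes, Rpl5 in 2, and Rpl15, Rpl7l1 and Rpl10a in erythroid-like cells. The members' differences on this scale were more alike between the libraries in some classes than in others. Over the 56 members with at least 100 CPM, Pearson's r across genes between replicates 1 and 2 was 0.849 in erythroid-like, 0.733 in cardiomyocyte-like and 0.504 in neural crest-like cells, and between 0.024 and 0.419 in the other 8 classes. By rank (Spearman's rho) the values were 0.769, 0.51 and 0.374, and between 0.024 and 0.365 in the other 8. By rank, neural crest-like cells were thus close to the highest of these 8. These values describe the same genes in both libraries and are no test.

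**Figure D4:**
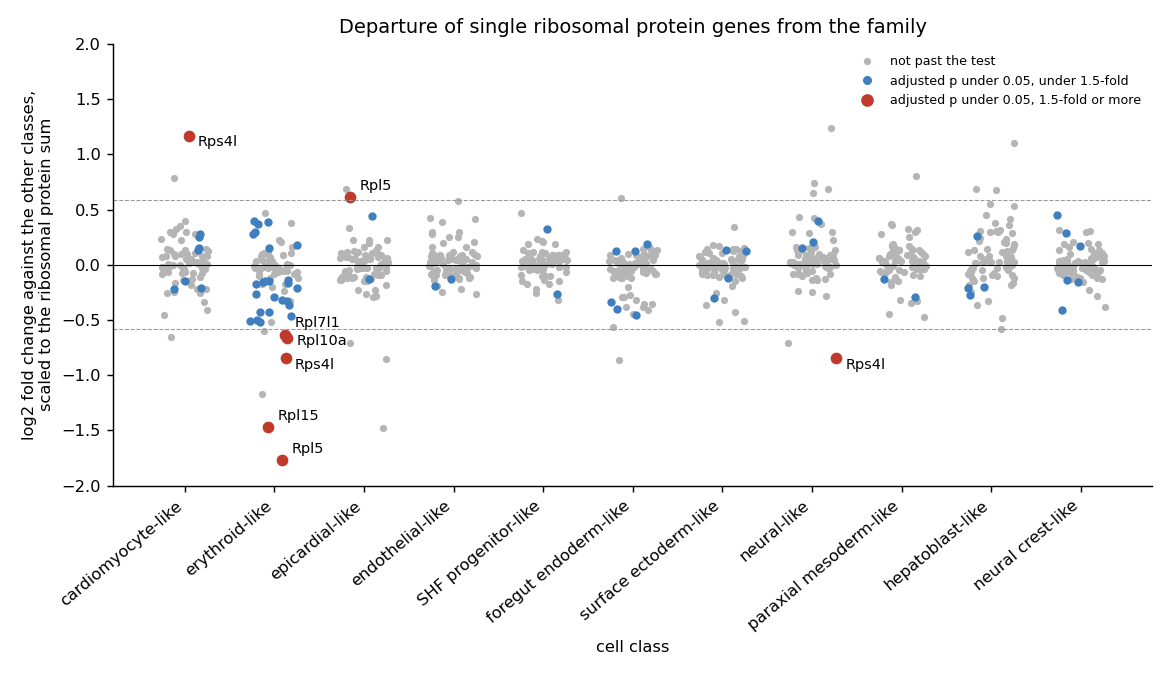
Log2 fold change of each ribosomal protein gene in a class against the other classes, scaled to the ribosomal protein sum (vertical axis), by cell class (horizontal axis, ordered by summed share). Each point is a gene; larger points passed edgeR's test at an adjusted p under 0.05 and 1.5-fold (dashed lines), and they are the 8 named pairs, from Rpl5 at -1.77 in erythroid-like to Rps4l at 1.17 in cardiomyocyte-like cells.

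Rps4l (chromosome 6, 148354656 to 148355598, plus strand, GRCm38) is the single member that rose in cardiomyocyte-like cells while the family was low there. It was at 247 and 346 CPM (296 ± 69.6, SD, n = 2; 176 and 264 UMIs), against 159 and 196 CPM (177 ± 26.1) in SHF progenitor-like cells. Cardiomyocyte-like cells had the highest value of all classes in each library, followed by hepatoblast-like cells at 220 and 295 CPM, which overlapped them across the libraries. Neural-like cells, at 125 and 98.0 CPM, and erythroid-like cells, at 110 and 79.8 CPM, were lowest in both libraries.

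Relative to the family, Rps4l rose 2.25-fold in cardiomyocyte-like cells (log2 difference 1.17 ± 0.113, adjusted p = 7.34e-12; 0.89 and 1.39 by replicate), where 24.5% of all tested genes were higher on this scale. It fell in erythroid-like cells (-0.84, adjusted p = 1.77e-06; background 44.8% lower) and in neural-like cells (-0.84, adjusted p = 9.41e-05; background 2.9% lower). Scaled to all genes the cardiomyocyte-like difference was 0.80 (adjusted p = 4.85e-08), so the rise was present on both scales. Of its end words, 90.24% occurred in no other gene, with 1 pseudogene sharing the others. Rps4l lies within Tmtc1 on the opposite strand, and Tmtc1 had 0 and 1 UMIs in cardiomyocyte-like cells.

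Rps4x, the main gene of this protein, moved the other way, at 251 and 410 CPM in cardiomyocyte-like cells (log2 difference scaled to all genes -0.46 ± 0.091, adjusted p = 7.01e-05). Rps4l made up 49.6% and 45.8% of the UMIs of the pair in cardiomyocyte-like cells, the highest of the 11 classes in both libraries. The median over classes was 32.8% and 24.4%, SHF progenitor-like cells had 30.1% and 24.8%, and the lowest values were 25.3% in neural crest-like cells of replicate 1 and 13.3% in neural-like cells of replicate 2. Only 28.77% of the end words of Rps4x were its own, and how reads of the others were counted is not given in the sources used here.

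Rpl5 (chromosome 5, 107900502 to 107909005, plus strand), which carries 5S rRNA into the large subunit, was at 5.58 and 11.0 CPM in erythroid-like cells, or 6 and 12 UMIs. All other classes lay between 14.5 and 49.1 CPM, above both values. Relative to the family it was 3.41-fold lower (log2 difference -1.77 ± 0.314, adjusted p = 1.55e-05; -1.99 and -1.21 by replicate). With classes gated by markers in place of clusters the difference was -0.26 (adjusted p = 0.363). All its end words are shared with Fam69a, which overlaps it on the opposite strand and was at 11.2 and 6.42 CPM in erythroid-like cells and 11.8 to 27.4 CPM elsewhere. Whether the counting used strand is not given in the sources used here, so reads of these genes cannot be told apart. In epicardial-like cells Rpl5 was at 38.7 and 40.0 CPM and departed upward (0.61, adjusted p = 0.0477; background 12.8% higher), a call lost under all 7 other settings of the test, with adjusted p from 0.0885 to 0.5.

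Rpl15 (chromosome 14, 18267823 to 18271391, minus strand), a large-subunit gene whose start carries one of the long pyrimidine runs shown above, was at 34.4 and 30.3 CPM in erythroid-like cells (37 and 33 UMIs). The other classes lay between 78.1 and 119.5 CPM, so no value overlapped. Relative to the family it was 2.77-fold lower (log2 difference -1.47 ± 0.170, adjusted p = 1.3e-09; -1.42 and -1.40 by replicate), and -0.44 with marker-gated classes (adjusted p = 0.00395). It overlaps Nkiras1 on the opposite strand, without shared end words. However, only 54.18% of the end words of Rpl15 occurred in no gene at another place, and 23 pseudogenes shared the others. For Rpl10a, given below, that share was 14.29%. Rpl7l1 fell in these cells too, to 166 and 125 CPM (log2 difference -0.63 ± 0.107, adjusted p = 6.36e-06). Rpl10a, at 19.5 and 21.1 CPM on 21 and 23 UMIs, was at the limit of the test (-0.66, adjusted p = 0.0432; -0.42 and -0.78 by replicate), moved by over 1.5 times to -0.42 without replicate 2, and lost its call under 3 settings, with adjusted p from 0.0184 to 0.248 over 7.

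**Figure D5:**
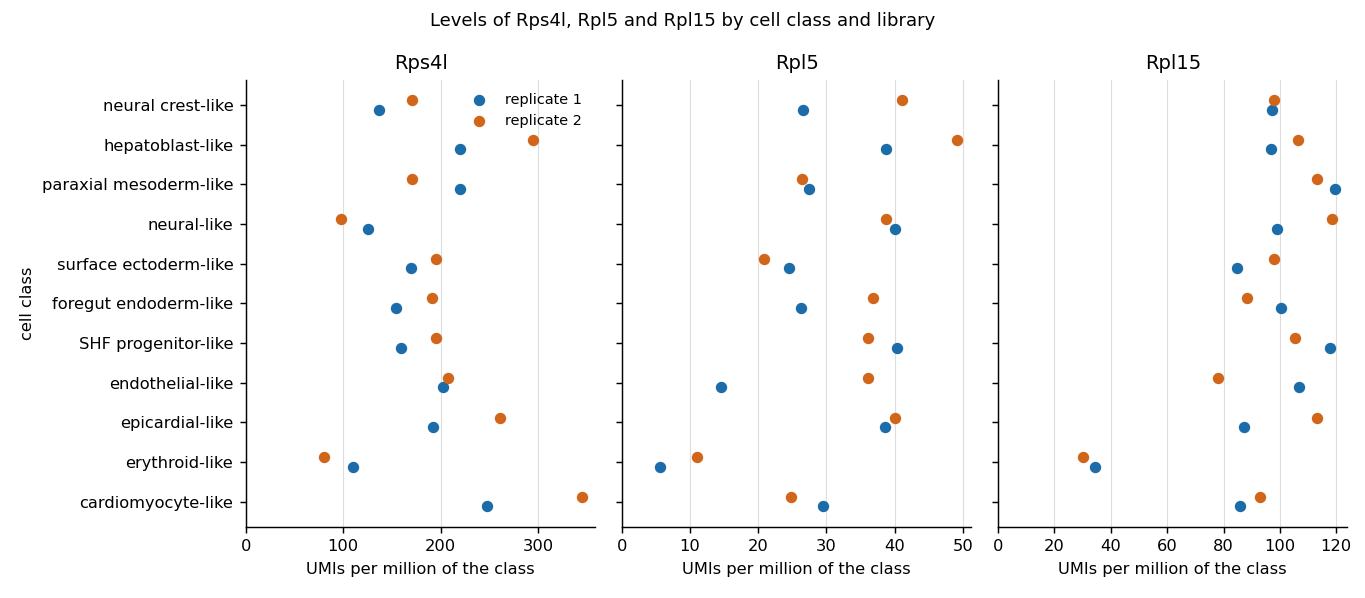
Levels in CPM (horizontal axes, linear) of Rps4l, Rpl5 and Rpl15 in the 11 classes and both libraries. Cardiomyocyte-like cells lie highest for Rps4l in each library (247 and 346 CPM), and erythroid-like cells lie below all other classes for Rpl5 (5.58 and 11.0 CPM) and Rpl15 (34.4 and 30.3 CPM).

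The other paralogues were compared with their main genes through their share of the pair's UMIs in each class. Rpl22l1, the paralogue of Rpl22, made up 24.8% and 25.2% in foregut endoderm-like cells, the lowest of the classes in both libraries, and 35.5% and 35.0% in hepatoblast-like cells, the highest in both. The median was 31.6% and 31.1%. Hepatoblast-like cells had 904 and 1043 CPM of Rpl22l1, foregut endoderm-like cells 618 and 690 and cardiomyocyte-like cells 566 and 545, while Rpl22 was at 1643 and 1939, 1876 and 2043, and 1365 and 1407 CPM in the same classes. In foregut endoderm-like cells Rpl22l1 was therefore low while Rpl22 was not, and in cardiomyocyte-like cells both were low (log2 differences -0.53 ± 0.084 and -0.35 ± 0.069, adjusted p = 8.95e-07 and 5.15e-05).

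Rpl7l1 made up 50.0% and 27.0% of its pair with Rpl7 in erythroid-like cells, the lowest in both libraries, around medians of 55.6% and 35.7%. Rpl7 itself stood 1.05 higher in replicate 2 than in replicate 1 on the log2 scale (median over classes), so this share moved with the library. Rpl36al held a median of 85.9% and 85.6% of its pair and Rps27l 98.3% and 98.5%, with no class lowest in both libraries for Rpl36al and cardiomyocyte-like cells lowest in both for Rps27l, at 96.6% and 97.4%. Rps27 had only 114 and 136 UMIs over all classes. Of the end words of the main genes Rpl36a, Rpl7 and Rps27, 0.0%, 18.52% and 32.42% occurred in no gene at another place. For Rpl36al, Rpl7l1 and Rps27l it was 38.5%, 99.15% and 78.91%. How shared reads were counted is not given, so these shares compare classes and not the genes of a pair. Rpl39l, known from testis, had 0 and 5 UMIs beside 11046 and 14815 of Rpl39. Rpl3l, known from adult heart and skeletal muscle, had 0 and 2 beside 66 and 48 of Rpl3, and Rpl10l, known from testis, had 3 and 3 beside 86 and 152 of Rpl10. These 3 were not measurable at this depth.

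Among the 56 members with at least 100 CPM on average, the range of the TMM-scaled log2 level over the classes was largest for Rps4l (1.59), Rplp0 (1.55), Rpl36al (1.49), Rpl14 (1.44) and Rplp1 (1.41). It was smallest for Rps28 (0.41), Rpl27a (0.55), Rpl31 (0.56), Rpl11 (0.59) and Rpl38 (0.65), a gene whose loss in mice disturbs the pattern of the axial skeleton. Rpl38 ran from 104 to 262 CPM over all classes and libraries, with 104 to 178 CPM in replicate 1 and 151 to 262 CPM in replicate 2. The erythroid-like class was the highest in all of these but Rps4l, and scaled to the ribosomal protein sum the ranges were 1.83 for Rps4l, 0.55 for Rplp0, 0.77 for Rpl36al, 0.44 for Rpl14 and 0.64 for Rplp1. On that scale they were 0.68 for Rps28, 0.55 for Rpl27a, 0.61 for Rpl31, 0.55 for Rpl11 and 0.40 for Rpl38, so the order of the genes other than Rps4l depended on the scale. Without TMM the direction of Rps28, Rpl27a, Rpl31, Rpl11 and Rpl38 in erythroid-like cells was reversed.

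Single members also differed between the libraries. In 35 members the level was higher in replicate 2 in all 11 classes, and in 1, Rpl35a, it was lower in all 11 (median log2 difference -0.72). The same count over all tested genes is not given here, so whether this shift is particular to the family was not tested. The median member stood 0.28 higher in replicate 2. Rpl29 differed most, by 1.88, followed by Rpl27 with 1.13 and Rps13 with 1.09. The libraries were made on different days from different embryos, which cannot be told apart, and the block for the library removed such shifts from the comparisons between classes.

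Members with and without the pyrimidine run at the annotated start were set side by side, and the difference between them was not tested. In cardiomyocyte-like cells the median log2 difference was -0.32 over the 22 tested members with the run and -0.35 over the 37 without. For SHF progenitor-like minus cardiomyocyte-like cells the medians were 0.28 and 0.31. Under TMM they were 0.60 and 0.68 in erythroid-like cells. They were -0.12 and -0.06 in foregut endoderm-like cells, where 0 members with the run lay above 0 in both libraries and 16 below, against 7 and 19 of those without. In endothelial-like cells they were -0.12 and -0.07, and in hepatoblast-like cells 0.07 and 0.03. Lower calls in cardiomyocyte-like cells numbered 11 of 22 and 23 of 37.

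The genes that work with the ribosome were counted on lists, each beside the background percentages of its class given above. Of 51 ribosome biogenesis genes, which build the subunits in the nucleolus, 38 were lower and 0 higher in cardiomyocyte-like cells (median log2 difference -0.66), and 40 were higher and 0 lower in neural crest-like cells (0.47, against 24 of 81 ribosomal protein genes at 0.16). In SHF progenitor-like minus cardiomyocyte-like cells 32 of the 51 were higher and 0 lower (0.61). Of 7 measured elongation factors 6 were lower in cardiomyocyte-like cells (-0.26), and of 33 initiation factors 12 were lower and 2 higher (-0.21). Of 6 genes of the stalk-associated and fused group 1 was lower there (-0.20).

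Of the 76 measured genes of the mitochondrial ribosome 6 were lower and 1 was higher in cardiomyocyte-like cells, with a median of 0.01, and whether this differs from the cytosolic genes was not tested. In erythroid-like cells the biogenesis list had 41 higher and 0 lower genes under TMM but 6 and 14 when scaled to all UMIs, and the initiation factors had 23 and 0 under TMM but 1 and 22. The elongation factors turned from 7 higher and 0 lower to 0 and 4, and the mitochondrial ribosome from 57 and 2 to 7 and 26. Of all tested genes in erythroid-like cells, 26.4% were higher and 24.1% lower under TMM, but 4.62% and 57.7% when scaled to all UMIs. Nhp2, a box H/ACA small nucleolar ribonucleoprotein, was at 609 and 577 CPM there against 356 and 434 on average elsewhere, so it was higher on both scales. Mycn, a growth-driving transcription factor, was at 146 and 295 CPM in neural crest-like cells against 74.0 and 92.5 elsewhere (log2 difference 1.93, adjusted p = 1.81e-19), and Myc at 115 and 149 CPM in erythroid-like cells against 50.4 and 61.3 (2.73 under TMM, adjusted p = 5.22e-24). Ddit4, an inhibitor of mTORC1 signalling, went the other way in erythroid-like cells, at 4.65 and 6.42 CPM against 68.0 and 62.4 (-2.58 under TMM, adjusted p = 8.57e-09). Of the 13 growth regulators 2 were higher and 3 lower there under TMM (median -0.35), and 1 and 8 when scaled to all UMIs (-1.23). In neural crest-like cells 4 were higher and 0 lower, and in cardiomyocyte-like cells 2 and 0.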

How the data were processed

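The deposited values are UMI counts, whole numbers for every gene in every barcode, which the authors did not normalize as far as the values show. The submitters' processing notes name mm10 and Scanpy, and the sources used here do not give the aligner, the counting rule or how barcodes were selected. The matrices cover 5000 barcodes (11958912 UMIs) in replicate 1 and 7497 (14131384 UMIs) in replicate 2, of which 4038 and 4934 passed 400 genes and 10% mitochondrial UMIs. Scrublet (expected rate 6%) called 0 and 1 doublets automatically, so the 5% of cells with the highest scores were removed instead.

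Cells were clustered with scanpy 1.11.5 (80% of the other genes and the markers, 2000 variable genes, 30 components, 20 neighbours, Leiden resolution 1) without ribosomal protein genes or the tested lists. A cluster was named when at least 3 markers were raised 2-fold in at least 5% of its cells and at least 1 stood among its 10 leading genes. This last rule and the 80% were set after the clusters were seen. Class sums per library were tested with edgeR 4.0.16 in R 4.3.3 (quasi-likelihood F test, two-sided, TMM, filterByExpr, class and library as terms, 10 residual degrees of freedom, Benjamini-Hochberg adjustment). The library is a block because all classes of a library come from the same embryos and day, which is what pairs them. For departures from the family the ribosomal protein sum replaced the library size. Alternatives were DESeq2 1.42.0, other filters, clusterings and marker gates, no block, haemoglobin and mitochondrial genes left out and, added after the data were seen, no TMM. The scripts were tested on simulated data.

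The members, lists (ribosome biogenesis, initiation and elongation factors, stalk and fused genes, growth regulators, mitochondrial ribosome), markers and tests were chosen with earlier results of these data known. Named genes are departures of at least 2-fold, paralogue pairs, Rplp0, Rplp1, Rplp2, Rpsa, Rps19, Rpl5, Rpl11, Rpl38, the 5 largest and 5 smallest ranges over classes, and list genes with the 4 smallest adjusted p-values. Other members, among them Rps27a, Rps21, Rpl10a, Rpl17, Rpl27, Rpl29, Rpl35a and the most counted genes, were named after their values were seen. The values of some members and list genes are not reported here. Of the identifiers, 99.7% were found in GENCODE M21 (GRCm38).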

Additional observations from a re-analysis of the deposited data

Results flagged for a closer look

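Ribosomal protein pseudogenes named -ps lay outside the family as chosen, yet held 65194 UMIs in replicate 1 and 79699 in replicate 2, or 0.584% and 0.621% of the UMIs of kept cells. They are listed here because signal was present in data that no comparison used. Whether these UMIs belong to the pseudogenes or to the coding genes whose ends they share was not tested.

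Barcodes with 10 to 200 UMIs, which were too shallow to be kept as cells, held 587 ribosomal protein UMIs in replicate 1 (117 barcodes) and 4644 in replicate 2 (333 barcodes). The family's share of their UMIs was 6.74% and 8.37%, against 7.09% and 8.07% in the kept cells.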

How the results depend on the processing

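Shares were ranked among the named classes alone, which leaves out the unnamed clusters 13 (2.92% and 3.91%) and 0 (8.32% and 9.79%). Of the named classes, cardiomyocyte-like cells had the lowest summed share under every setting run. The value was 4.917% with at least 800 genes per cell, 4.809% at resolution 1.6 and 4.997% with another share of the genes for clustering, and 5.789% to 5.952% with either library alone. The highest share was 11.54%, in erythroid-like cells, with haemoglobin and mitochondrial genes left out, and 7.776% (neural crest-like) to 8.904% (hepatoblast-like) with either library alone. Without the library as a block, which pairs the classes of a library, 43 member and class pairs were higher and 14 lower, and 2 members were higher in SHF progenitor-like than in cardiomyocyte-like cells. Classes gated by markers gave 56 lower pairs, 21 members higher in the progenitor-like cells and 4 departing pairs. DESeq2 also gave 21, and another share of the clustering genes 53. With at least 800 genes per cell 13 pairs departed. The cause of these shifts was not tested.

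Scaled to all UMIs without TMM, the differences in erythroid-like cells were reversed for Rps28 (-0.67), Rpl11 (-0.59), Rpl31 (-0.53), Rpl27a (-0.49), Rpl39 (-0.425), Rpl38 (-0.41), Rpl22 (-0.31), Rps4x (-0.27), Rpl7 (-0.25), Rplp2 (-0.20), Rps27l (-0.16), Rpl36a (-0.12), Rpl22l1 (-0.0897) and Rps19 (-0.0688), and by its construction this scale follows the haemoglobin UMIs of that class. With marker-gated classes Rpl5 in erythroid-like cells was at 0.13 when scaled to all genes. Of 780 alternative values for 67 named pairs of a gene and a class, 648 were counted as unchanged. Under another setting this meant the same direction and an adjusted p under 0.05. With 1 library left out no test was run, and it meant the same direction and a value within 1.5 times the main one. Of the rest, 108 lost significance, 15 were reversed and 9 moved by more than 1.5 times with 1 library left out. Depth limits genes such as Rps27a and Rpl5, which had 5 to 21 UMIs in some sums, and paralogues with under 10 UMIs in all.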
